A study of Rattus norvegicus with 24 samples.

Results

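Histone genes were examined in the hippocampus and neocortex of 24 rat pups. The members are the 37 genes, of 17420 in the table, whose symbol begins with Hist1h to Hist4h, H1f, H2af or H3f. The rule uses symbols only, but it was set with earlier results of these data known. Of these, 26 are clustered replication-dependent genes (H1 4, H2A 9, H2B 8, H3 2 and H4 3) and 11 are variants (H1 3, H2A 7 and H3 1). Other histone genes that do not carry these prefixes were not analysed here.

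All pups were Sprague-Dawley rats collected on embryonic day 18, with 6 pups in each of 4 groups. Saline dams were injected intraperitoneally on gestational day 17, MAM dams received methylazoxymethanol acetate, a DNA-methylating agent that stops neural precursors from dividing, at 22 mg/kg, and Poly I:C dams received polyinosine:cytosine, a double-stranded RNA mimic that activates innate immunity, at 7.5 mg/kg, each 18 hours before collection. Low Protein dams ate a diet with 6.1% protein from gestational day 11 to 18. Control dams, taken here to be the saline group, ate an isocaloric diet with 20.3% protein over the same days. The diet of the Poly I:C and MAM dams, and any injection of the Low Protein dams, are not given in the sources used here. Groups hold 3 pups of 2 litters each, so the treated unit, the dam, was replicated only 2 times per group. Estimated depth was 25.0 to 65.0 M (megareads) per pup, with group medians of 30.9 M in Poly I:C, 34.1 M in saline, 42.5 M in MAM and 44.5 M in Low Protein.

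Clustered histone genes supply the histones that package newly made DNA. Most have no introns, they are transcribed mainly in S phase, and their messages usually end in a stem-loop that the stem-loop binding protein Slbp holds, in place of a poly(A) tail. Variant genes are expressed through the cell cycle, usually carry introns and a poly(A) tail, and supply histones that are exchanged into chromatin without replication. In the cortex of this age, dividing progenitors line the ventricle and neurons that have left the cycle lie outside it. The libraries were made with poly(A) selection, so a clustered gene is counted through whatever part of its message carried a tail or was carried along. The list of other RNAs without a poly(A) tail had 6 members in the table and a summed level of 0.00302 to 1.85 TPM per pup, and none of its members passed the filter.

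Regulatory sequence shows how closely some of these genes are packed. Of the 37 genes, 32 matched a RefSeq promoter window in the GRCr8 build, and Hist1h1d, Hist1h2bh, Hist1h2bl, Hist2h2aa3 and Hist2h4 did not. The 250 bases before the start were searched on both strands for CCAAT, for TATAAA, and for the octamer ATTTGCAT, which is known from H2B promoters. A match to one can share bases with a match to another. CCAAT stood in 26 of the 32 windows and in 34.0% of all 33469 promoters of the same length. TATAAA stood in 14 windows, 12 of them among the 21 clustered genes, and in 12.9% of all promoters. The octamer stood in 10 windows, 9 of them clustered and 1 of them that of the variant H3f3b, and in 1.56% of all promoters. Within the clustered genes, 4 of 6 H2B windows and 5 of 15 other windows held it. The windows of Hist3h2a and Hist3h2bb, and those of Hist1h2aa and Hist1h2ba, overlap, so these counts are not of separate sequences. A match is a description of letters and not a site.

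The sequences below are shown because they belong to a divergent clustered pair with very different levels, to the clustered gene with the highest level, and to the H2A.Z genes, one of which had the lowest p-value against saline. Capitals mark matches to any of these motifs on either strand, and each sequence runs 5′ to 3′ on the strand given. The stretch between the divergent starts of Hist3h2bb and Hist3h2a is chr10:44233066-44233282 in GRCr8, read on the plus strand, and lies between the genes as RefSeq annotates their starts. It holds 3 matches to CCAAT, 1 octamer and no TATAAA. The other 3 are the 250 bases upstream of the annotated start of Hist3h2ba (chr10:44225171-44225420, plus strand), of H2afv (chr14:85526069-85526318, minus strand) and of H2afz (chr2:229028845-229029094, plus strand). Each of these holds 3 matches to CCAAT, and TATAAA was found only in that of Hist3h2ba among the 4.
Hist3h2bb to Hist3h2a: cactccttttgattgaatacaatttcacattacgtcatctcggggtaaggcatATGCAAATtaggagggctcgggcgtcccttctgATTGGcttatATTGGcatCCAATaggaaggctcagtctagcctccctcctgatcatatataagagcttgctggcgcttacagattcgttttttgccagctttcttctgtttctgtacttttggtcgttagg
Hist3h2ba: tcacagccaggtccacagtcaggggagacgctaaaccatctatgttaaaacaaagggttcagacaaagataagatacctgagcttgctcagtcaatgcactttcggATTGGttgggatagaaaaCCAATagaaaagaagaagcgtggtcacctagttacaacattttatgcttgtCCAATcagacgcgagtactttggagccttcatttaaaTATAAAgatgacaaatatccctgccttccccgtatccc
H2afv: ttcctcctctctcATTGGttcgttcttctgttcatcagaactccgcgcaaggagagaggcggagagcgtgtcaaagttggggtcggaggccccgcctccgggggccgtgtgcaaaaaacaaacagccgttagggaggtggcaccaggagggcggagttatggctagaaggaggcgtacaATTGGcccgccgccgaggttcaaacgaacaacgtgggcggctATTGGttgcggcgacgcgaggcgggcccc
H2afz: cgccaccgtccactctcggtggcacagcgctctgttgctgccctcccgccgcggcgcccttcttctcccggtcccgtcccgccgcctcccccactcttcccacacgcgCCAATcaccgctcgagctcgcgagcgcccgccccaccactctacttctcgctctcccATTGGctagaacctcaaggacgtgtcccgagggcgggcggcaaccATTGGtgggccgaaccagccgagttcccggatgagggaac

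Values are TPM as deposited, which includes an offset of 0.0001 that stands for no reads. The authors' software scaled each value by a length that for intron-bearing genes appeared to be the genomic span, which is not established here. Levels are therefore compared between genes only among the intronless ones. Of the 37 genes, 14 had a mean above 1 in every group and were tested (7 clustered and 7 variant), and 23 were not (19 clustered and 4 variant). The 7 tested clustered genes comprise 3 H2A, 3 H2B and 1 H4 gene, and no clustered H1 or H3 gene passed.

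**Figure D1:**
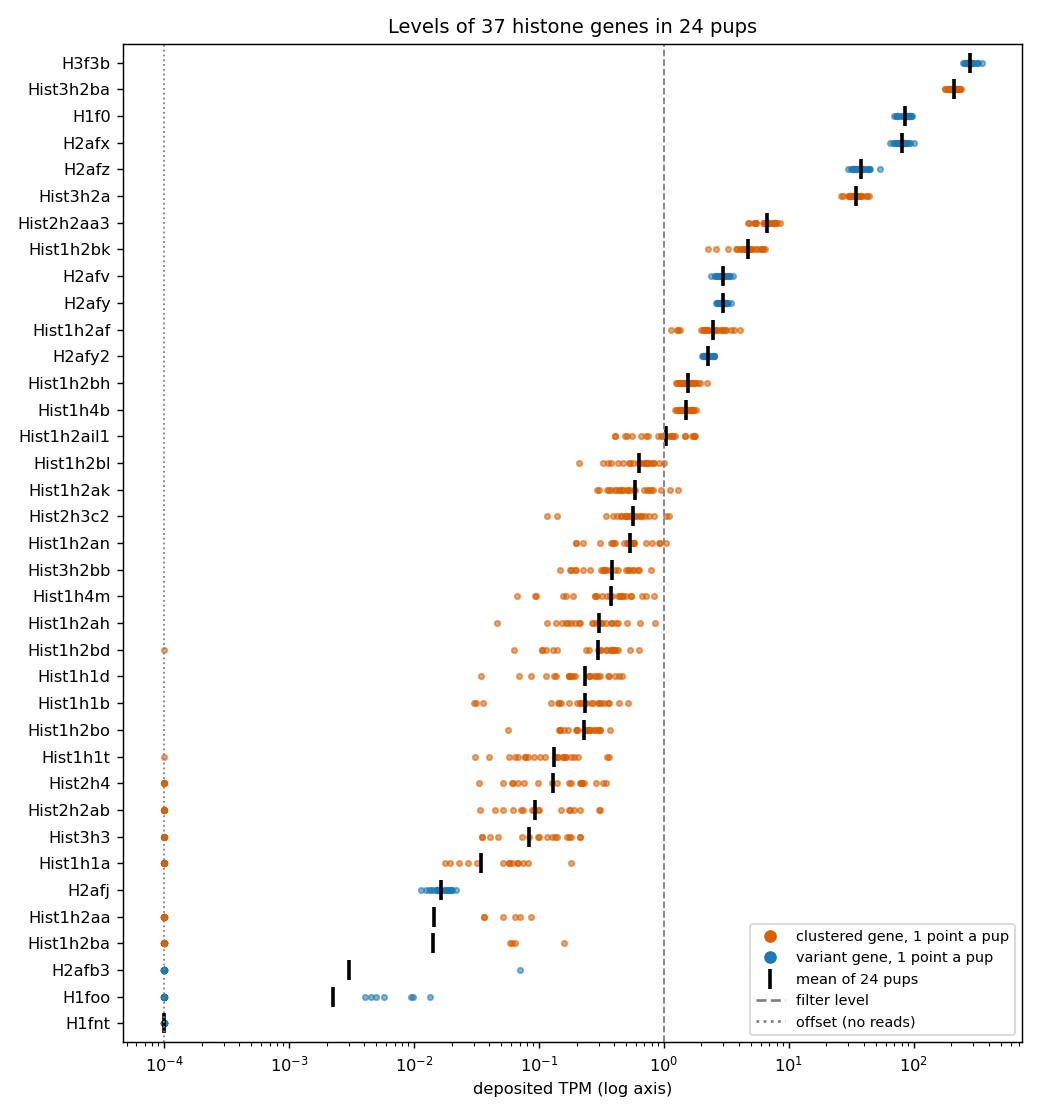
Deposited TPM on a log axis for each of 37 histone genes, 1 point per pup, with clustered genes in orange, variants in blue and the mean of 24 pups as a black bar. The axis gives deposited values, in which introns appear to lower a gene's position. Most clustered genes lie below the filter level of 1.

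Among clustered genes, the message captured by poly(A) selection came almost wholly from the small Hist3 locus on chromosome 10. Messages without a tail are largely missed, so the shares below do not describe all clustered histone message in the tissue. Hist3h2ba, an H2B gene, had a mean of 208 TPM, and Hist3h2a, an H2A gene, had a mean of 34.4 TPM. These genes together made up 89.8 to 93.5% of the summed clustered level in each pup, and Hist3h2ba alone made up 75.1 to 80.9%. Hist3h2bb, whose annotated start lies 217 bases from that of Hist3h2a on the opposite strand, had a mean of 0.388 TPM. Hist3h2a exceeded it by 88.6-fold in the means and by 45.0-fold to 247-fold in single pups. Both genes border the sequence printed first above. Hist3h3, which lies in the same locus and is known as a testis H3 gene, was at the offset in 7 pups and had a mean of 0.0826 TPM.

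The other tested clustered genes were far lower. Hist2h2aa3 (H2A) had a mean of 6.73 TPM, Hist1h2bk (H2B) 4.68, Hist1h2af (H2A) 2.46, Hist1h2bh (H2B) 1.57 and Hist1h4b (H4) 1.51. Histone paralogs are nearly identical in sequence and the authors' expectation-maximization counting splits reads among them, so values of these genes are uncertain as to which copy they describe. Hist1h2bh, Hist2h2aa3, Hist1h1d and Hist1h2bl each match several current RefSeq entries.

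Below the filter, the clustered genes whose reads could be estimated had 0 to 37 reads per pup. Where the values could be turned into whole reads, Hist1h1b, known as the linker histone H1.5 gene, had 1 to 16 reads per pup (median 7), Hist1h1d 1 to 15 (median 8), Hist1h2ail1 6 to 37 (median 25), Hist1h2ak 5 to 23, Hist1h2an 4 to 29, Hist1h2ah 1 to 17 and Hist2h3c2, an H3 gene, 2 to 27. Hist1h1t and Hist3h3, both known from testis, had 0 to 13 and 0 to 7 reads, Hist2h4 0 to 9, Hist1h1a 0 to 5 and Hist2h2ab 0 to 5. The lengths that turned the values into whole reads were 383 to 749 bases. They were searched for only in a range around the size of a histone coding sequence, so their size is no check on the reads. Counting error alone gives coefficients of variation of 21.6 to 88.0% at these reads, against 40.5 to 125% observed. Hist1h2bl (mean 0.628 TPM), Hist1h4m (0.380), Hist1h2bd (0.296) and Hist1h2bo (0.230) lay in the same range. The testis-type genes Hist1h2aa and Hist1h2ba were above the offset in 6 and 4 pups and had the lowest clustered means, 0.0145 and 0.0143 TPM. For genes at such depth the spread between pups includes counting error, and was larger than it where both were given.

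Variant levels are given gene by gene, since introns appear to lower the deposited value. H3f3b, which encodes the replacement histone H3, had a mean of 284 TPM. H1f0, the linker histone of cells that leave the cycle, had a mean of 85.2 TPM, and H2afx, whose protein is phosphorylated beside DNA breaks, had 80.4. H2afz and H2afv encode the H2A.Z variants that flank active promoters and had means of 37.8 and 2.96 TPM. H2afy and H2afy2, the macroH2A genes, had 2.95 and 2.27 TPM. Of the 4 untested variants, H1fnt, a testis linker histone, was at the offset in all 24 pups, H1foo, the oocyte linker histone, was above it in 7 pups and H2afb3 in 1. H2afj was above the offset in all pups at a mean of 0.0165 TPM, which at its current length of 485 bases would be under 1 read (0.181 to 0.645). The length behind its value was not settled, and no level is read from it.

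Against saline, no histone gene passed the adjusted threshold in any of the 3 treatments, and the differences were small. In limma on log2 TPM with Benjamini-Hochberg adjustment, 0 of 14 had an adjusted p under 0.05, where 0.0197% of the 5086 genes tested did in MAM and 0% did in each of the others. Without adjustment, 3 of 14 were higher at p under 0.05 in the Low Protein pups (Hist3h2ba, Hist1h2bh and H2afv), where 3.66% of all genes were higher. In MAM 1 was higher (H2afv, background 3.07%) and in Poly I:C 2 were higher (H2afv and H2afy, background 4.25%). None was lower, where 4.58% of all genes were in Low Protein, 8.18% under MAM and 5.7% under Poly I:C. No histone gene had all 6 treated pups outside the range of the saline pups, which 0.747%, 0.786% and 0.492% of genes had. The 3 comparisons use the same saline pups and are not independent of one another. In bulk tissue, fewer cells of a type and less RNA per cell cannot be told apart.

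**Figure D2:**
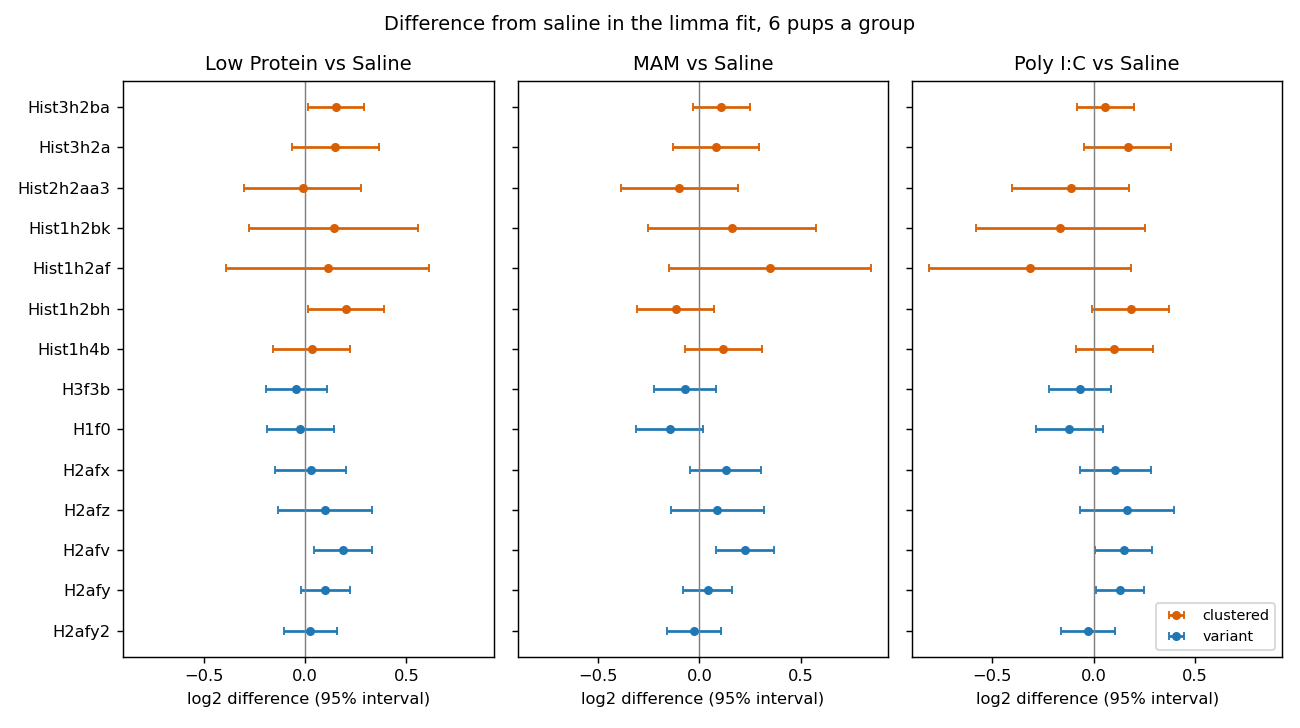
Log2 difference from saline with its 95% interval in the limma fit, for the 14 tested histone genes in each treatment, with clustered genes in orange and variants in blue. Most intervals span 0, and those of H2afv lie above 0 in all 3 panels.

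Median differences of clustered and variant genes were small in every treatment. In Low Protein the median log2 difference was 0.14 for the 7 clustered genes and 0.03 for the 7 variants, beside −0.01 over all genes tested. In MAM these medians were 0.11, 0.04 and −0.05, and in Poly I:C 0.06, 0.11 and 0.01. Positive differences were found for 6 of 7 clustered genes and 5 of 7 variants in Low Protein. In MAM, 5 clustered genes and 4 variants had one, and in Poly I:C 4 of each kind. The summed level of the 7 tested clustered genes had a median of 238 TPM among saline pups, 258 among Poly I:C pups, 259 among MAM pups and 274 among Low Protein pups, and the groups overlapped.

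H2afv, an H2A.Z gene, had an unadjusted p under 0.05 in each of the 3 comparisons with saline. Its level in saline was 2.38 to 2.95 TPM (median 2.69), in Low Protein 2.87 to 3.34 (median 3.02), in MAM 2.67 to 3.58 (median 3.07) and in Poly I:C 2.57 to 3.32 (median 2.98). Every group's range overlapped that of saline. The log2 difference from saline was 0.22 ± 0.0687 (SE) under MAM, 0.19 under Low Protein and 0.15 under Poly I:C, with the same SE. The limma p-values were 0.00337, 0.0116 and 0.0434, and adjusted over all genes 0.373, 0.533 and 0.481. Exact two-sided permutation tests of 6 against 6 pups, for which the smallest p is 0.00216, gave 0.0130, 0.00649 and 0.0606. H2afz, the other H2A.Z gene, had differences of 0.09, 0.10 and 0.16 (SE 0.112) in the same order, with 95% intervals that reached from −0.14 to 0.39 over the 3 comparisons. Without litter 1 of saline, the H2afv differences were 0.17, 0.14 and 0.09 on the log2 scale, and none had a p under 0.05. With litter means the MAM and Low Protein differences kept a limma p under 0.05 and that of Poly I:C did not, nor did it with only the 12 pups compared.

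Hist3h2ba, the clustered gene with the highest captured level, was 179 to 222 TPM in saline (median 193). It was 197 to 230 in Low Protein (median 222), 185 to 238 in MAM (median 209) and 179 to 227 in Poly I:C (median 208). The Low Protein pups were high as a group and overlapped with saline. The log2 difference was 0.15 ± 0.0679 (SE) in Low Protein (limma p = 0.0346, adjusted p = 0.577, exact permutation p = 0.0260), 0.11 under MAM (exact permutation p = 0.171) and 0.06 under Poly I:C (exact permutation p = 0.426). The saline litters did not overlap for this gene, with 3 pups at 179 to 191 TPM in litter 1 and 3 at 196 to 222 in litter 2. Without litter 1 of saline the Low Protein difference was 0.07, and with litter means it had no p under 0.05. Hist3h2a, which lies beside it, was 26.2 to 37.0 TPM in saline (median 33.4), 31.0 to 44.1 in Low Protein, 30.1 to 38.4 in MAM and 30.0 to 42.3 in Poly I:C, with differences of 0.15, 0.08 and 0.17 (SE 0.103) and no p under 0.05.

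Hist1h2bh differed more between treatments than from saline. It was 1.33 to 1.93 TPM in saline (median 1.42), 1.44 to 1.86 in Low Protein (median 1.75), 1.24 to 1.51 in MAM (median 1.37) and 1.53 to 2.21 in Poly I:C (median 1.61). MAM pups were the lowest group and none reached the Poly I:C pups. The difference from saline was 0.20 ± 0.0917 (SE) in Low Protein (limma p = 0.0372, adjusted p = 0.581, exact permutation p = 0.0693), 0.18 in Poly I:C (exact permutation p = 0.160) and −0.12 in MAM (exact permutation p = 0.247). The log2 difference of MAM from Poly I:C was −0.30 (limma p = 0.00330, adjusted p = 0.0608, exact permutation p = 0.00216, the smallest this design can give). MAM against Low Protein was −0.32 (limma p = 0.00190, adjusted p = 0.176, exact permutation p = 0.00649). Over the 4 groups the limma F test gave an adjusted p of 0.154.

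The comparisons among treatments stood on a high background. Between MAM and Poly I:C, 2 of 14 histone genes had a p under 0.05 (Hist1h2bh and Hist1h2af), where 23.1% of all genes did, and 0 of 14 had an adjusted p under 0.05, where 3.46% did. Hist1h2bh was the only histone gene whose MAM and Poly I:C pups did not overlap, where 4.35% of genes had none. Hist1h2af was 2.07 to 4.04 TPM in MAM and 1.26 to 3.14 in Poly I:C, a log2 difference of 0.66 ± 0.242 (SE) with limma p = 0.0112, adjusted p = 0.106 and exact permutation p = 0.0433. Between MAM and Low Protein 1 of 14 was called (background 11%), and between Poly I:C and Low Protein 0 of 14 (background 5.31%). The F test over the 4 groups called 2 of 14, Hist1h2bh and H2afv, where it called 16.4% of all genes, and 0 of 14 after adjustment, where it called 0.413%.

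H2afy, a macroH2A gene whose protein is enriched on silent chromatin, was 2.59 to 3.03 TPM in saline (median 2.80), 2.71 to 3.25 in Low Protein, 2.71 to 3.13 in MAM and 2.82 to 3.43 in Poly I:C (median 3.03). The ranges overlapped. The difference in Poly I:C was 0.13 ± 0.0584 (SE), with limma p = 0.0366, adjusted p = 0.461 and exact permutation p = 0.0476. With litter means, or with only the 12 pups compared, it had no p under 0.05. The difference was 0.10 in Low Protein (permutation p = 0.134) and 0.04 in MAM (permutation p = 0.433). H2afy2, the other macroH2A gene, had differences of 0.03 in Low Protein and −0.03 in the other treatments, with 95% intervals within −0.16 to 0.16.

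The variants with the highest deposited value in the H3, H2A and H1 classes had no p under 0.05 in any comparison. H3f3b was 268 to 330 TPM in saline (median 285), 254 to 321 in Low Protein, 263 to 293 in MAM and 246 to 350 in Poly I:C, with differences of −0.04, −0.07 and −0.07 and 95% intervals within −0.23 to 0.11. H2afx was 67.8 to 86.3 TPM in saline, 65.2 to 87.9 in Low Protein, 76.8 to 93.9 in MAM and 72.1 to 101 in Poly I:C, with a difference of 0.13 in MAM (exact permutation p = 0.104). H1f0 was 85.4 to 93.6 TPM in saline, 74.2 to 97.0 in Low Protein, 73.2 to 92.6 in MAM and 69.9 to 93.3 in Poly I:C. Its MAM difference was −0.15 (limma p = 0.0798, exact permutation p = 0.0563).

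**Figure D3:**
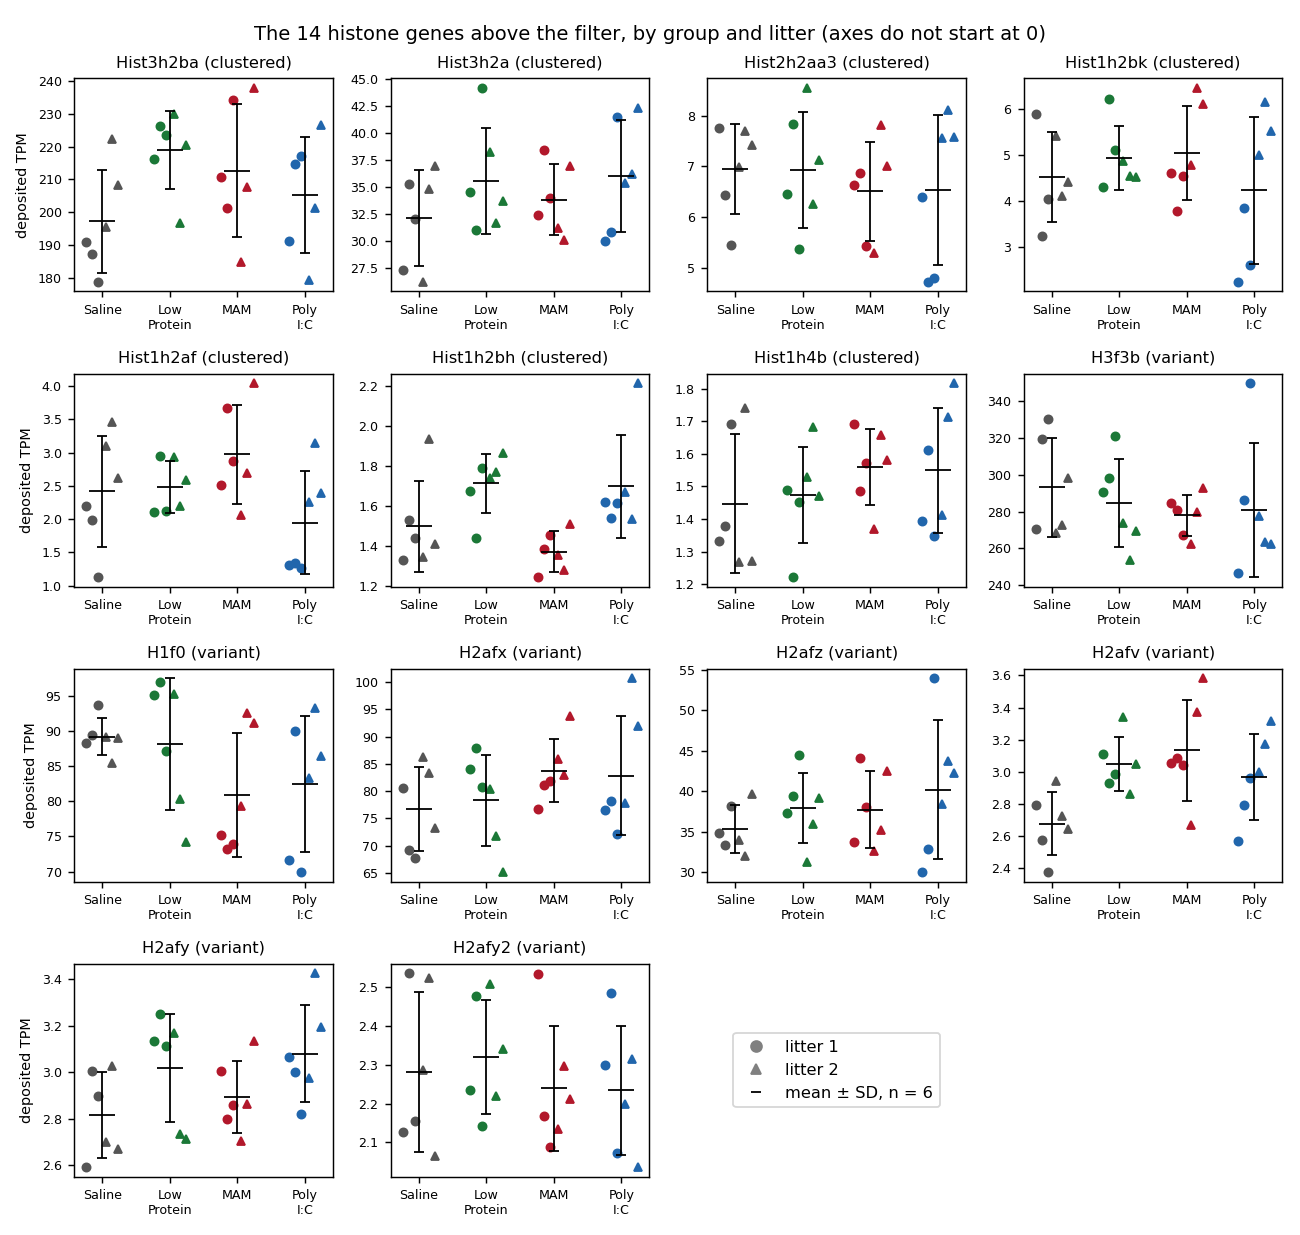
Deposited TPM of the 14 tested histone genes in each pup, by maternal treatment, with circles for litter 1, triangles for litter 2 and bars for mean ± SD of 6 pups. The axes differ between genes and do not start at 0. The Poly I:C litters separate for Hist1h2af, Hist1h2bk, Hist2h2aa3 and H2afv.

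The remaining tested clustered genes were not distinguishable from saline at this replication. Hist1h4b was 1.27 to 1.74 TPM in saline, 1.22 to 1.68 in Low Protein, 1.37 to 1.69 in MAM and 1.35 to 1.82 in Poly I:C, with differences of 0.03, 0.12 and 0.10 (SE 0.0918). The differences of Hist1h2af, Hist1h2bk and Hist2h2aa3 had SEs of 0.242, 0.202 and 0.139, and their intervals allow changes of up to 0.85, 0.58 and 0.28 upward and 0.81, 0.58 and 0.40 downward in at least 1 treatment on the log2 scale.

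Below the filter, 12 untested genes were above the offset in all 24 pups, and exact permutation tests of their mean TPM gave 1 p under 0.05 in 36 tests. It was Hist1h1b in MAM, at 0.165 ± 0.0766 against 0.265 ± 0.0665 TPM in saline (SD, n = 6 pups, exact permutation p = 0.0303). Its pups ranged from 0.0311 to 0.239 TPM in MAM and 0.174 to 0.364 in saline, which at 1 to 16 reads per pup overlap. Hist1h1d, the clustered H1 gene with the highest mean, was 0.0345 to 0.287 TPM in saline, 0.173 to 0.466 in Low Protein, 0.0694 to 0.434 in MAM and 0.0867 to 0.356 in Poly I:C, and Low Protein gave a ratio of 1.72 (exact permutation p = 0.0628). Hist2h3c2, the H3 gene with the highest clustered mean, was 0.395 to 1.09 TPM in saline, 0.487 to 0.665 in Low Protein, 0.116 to 0.834 in MAM and 0.139 to 0.704 in Poly I:C. The summed level of the 19 untested clustered genes had a median of 5.47 TPM among Low Protein pups, 6.08 among MAM pups and 6.25 both among Poly I:C and saline pups, and the ranges overlapped.

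For some histone genes the pups of different litters separated within a group. In Poly I:C, Hist1h2af was 1.26 to 1.35 TPM in the 3 pups of litter 1 and 2.26 to 3.14 in those of litter 2, and Hist1h2bk was 2.25 to 3.85 and 5.00 to 6.14. Hist2h2aa3 and H2afv also did not overlap between these litters. That is 4 of 14 histone genes, where 19% of all genes did not overlap between the Poly I:C litters. Histone genes were higher in litter 2 in 11 of 14 cases, beside 42.9% of all genes, with median log2 differences of 0.17 for the histone genes and −0.02 for all genes. The litters did not overlap for 2 of 14 in saline (background 4.15%), 2 in Low Protein (20.6%) and 3 in MAM (6.25%). Hist1h2af also separated the saline litters, at 1.13 to 2.20 and 2.61 to 3.46 TPM.

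Other measures differed between the same Poly I:C litters. The summed S phase list was 72.3 to 77.5 TPM in litter 1 and 84.0 to 97.3 in litter 2, the G2 and mitosis list 39.8 to 46.0 and 47.7 to 57.6, and the choroid plexus list 32.6 to 151 and 192 to 243. Estimated depth was 29.0 to 29.5 and 32.2 to 41.8 M. Their part in the histone values was not tested. Without litter 1 of Poly I:C, 6 of 14 histone genes were higher than saline at an unadjusted p under 0.05, where 6.9% of all genes were. Without litter 2, none was higher (background 2.4%) and 4 were lower (background 1.97%). Each of these fits leaves 3 Poly I:C pups of 1 dam, so its p-values do not measure the spread between dams. The counts draw on the same litter values as the separation described above. With 2 litters in each group, the spread between dams is estimated from few dams.

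Over pups, some histone genes moved together within groups. After each group mean was removed, the median Pearson correlation over 24 pups was 0.19 among the 21 pairs of clustered genes, 0.15 among the 21 pairs of variants, 0.20 between the kinds and 0.07 over all pairs of tested genes. The highest pair was Hist1h2af with Hist2h2aa3 (0.76), both H2A genes whose reads may be shared, followed by Hist1h2af with H2afv (0.71). The lowest was H2afy2 with H2afz (−0.58). Pups share litters, and the values share a common scaling, so these are descriptions. Depth within groups correlated with Hist1h4b at 0.52 and with the other 13 genes at −0.19 to 0.12.

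**Figure D4:**
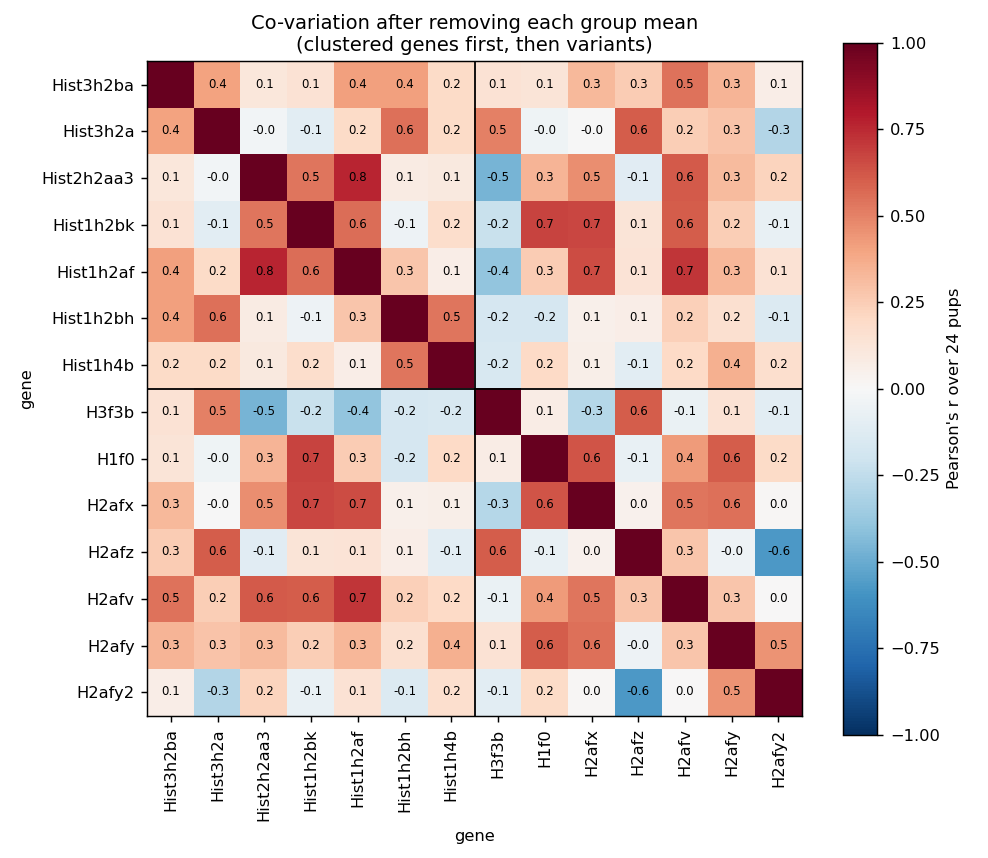
Pearson correlation over 24 pups between tested histone genes after each group mean was removed, with clustered genes first and variants after the black line. Hist1h2af, Hist2h2aa3, Hist1h2bk and H2afv form a block of positive values, up to 0.76. The Poly I:C litters separate for these genes, and litter means were not removed. H2afx is also positive with each of them, at 0.47 to 0.67.

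Genes that make and use histone messages were compared with lists. Of all genes tested, the shares higher at an unadjusted p under 0.05 were 3.07% for MAM, 3.66% for Low Protein and 4.25% for Poly I:C. The shares lower were 8.18% for MAM, 4.58% for Low Protein and 5.7% for Poly I:C, and the counts in these lists are to be read against them. Of 15 genes for histone transcription and 3′ end processing, 9 were tested, and 1 had an unadjusted p under 0.05 in each treatment. In Low Protein it was Mblac1, a histone pre-mRNA nuclease, at −0.17, in MAM Cpsf2, a cleavage complex subunit, at −0.22, and in Poly I:C Cpsf3, the cleavage nuclease, at 0.16. The list's median differences were 0.01, −0.09 and 0.07 in this order. Slbp, the stem-loop binding protein, differed by 0.03, −0.07 and 0.07 (SE 0.0733), and Npat, which drives clustered histone transcription, lay below the filter in every group, with means of 0.420 to 0.478 TPM. Of 24 histone chaperone genes 13 were tested and none had an unadjusted p under 0.05 against saline, with medians of 0.05, −0.07 and 0.11.

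Of 20 S phase genes 14 were tested, and 4 were higher without adjustment in Poly I:C (Mcm3, Mcm4, Pcna and Rrm1), 2 in Low Protein (Mcm3 and Mcm4, subunits of the replicative helicase) and 0 in MAM, at p under 0.05. Mcm4 was 0.32 ± 0.0893 (SE) higher in Poly I:C (adjusted p = 0.225), and Pcna, the sliding clamp, 0.24 higher (adjusted p = 0.399). Of 16 G2 and mitosis genes 10 were tested, 6 were higher in MAM at an unadjusted p under 0.05 and none was in the other comparisons with saline. No gene of these lists passed adjustment against saline. The proliferation marker Mki67 differed by 0.11, −0.05 and 0.24 (SE 0.155) and Top2a by 0.10, 0.09 and 0.21 (SE 0.104), in the order Low Protein, MAM, then Poly I:C.

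The summed levels of the marker lists below overlapped between groups. The summed neocortex and hippocampus list was 169 to 331 TPM over all pups, and of its 7 tested genes Emx2, Fezf2 and Lhx2 were higher and Bcl11b was lower in Low Protein at an unadjusted p under 0.05, as Lhx2 was higher in the other treatments. These marker genes are named because their counts are small, and were chosen after their values were seen. Ganglionic eminence genes include Dlx1, Dlx5 and Lhx6, which the paper ties to interneurons, cells that migrate into cortex and hippocampus. The list summed to 45.2 to 95.8 TPM in saline and 38.6 to 57.3 in Low Protein. The highest saline sum was that of replicate 2.1, with the other saline pups at 45.2 to 61.6 TPM. This pup also had the lowest neocortex and hippocampus sum, 169 TPM. In Low Protein 3 of 5 tested genes were lower at an unadjusted p under 0.05 (background 4.58%), and 2 of 5 were lower in MAM (background 8.18%). Choroid plexus genes summed to 122 to 182 TPM in saline, 56.1 to 207 in MAM and 32.6 to 243 in Poly I:C. Microglia genes summed to 9.91 to 11.6 TPM in saline and 11.5 to 14.4 in MAM, where 2 of 3 tested genes, C1qa and C1qb, were higher (background 3.07%). The part of these differences in the histone values was not tested.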

How the data were processed

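Hippocampus and neocortex RNA of 24 pups was sequenced after poly(A) selection. The authors trimmed reads, aligned them to rn6 with STAR 2.4.1d, quantified RefSeq transcripts with the Partek expectation-maximization tool and deposited TPM values, to which 0.0001 had been added. The deposited values sum to the same total, 70350, in every pup and are not whole numbers. This total is lower than the label TPM implies, and the values were not rescaled to the usual total. The values appear to be scaled to transcript length or genomic span, so that long introns would lower a gene's level. No counts were used.

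Here log2 TPM was compared with limma 3.58.1 in R 4.3.3, with all 24 pups and the group as factor, and Benjamini-Hochberg adjustment over the 5086 genes with a mean above 1 in every group. The method was tested on simulated data. Exact permutation tests took 6 pups against 6, without regard to litter. Reads per pup were estimated from the steps between low values. Gene lengths, names and promoters came from RefSeq (GRCr8) and not rn6. The leading digit of the replicate number in each sample name gave the litter.

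The members and the lists were chosen with earlier results of these data known. All tested members are named, with full values for members with a p under 0.05 against saline or in the F test and for the highest member of each class. Alternatives covered the filter, pseudocount, scaling, the pups in the fit, litter, replicate number and leaving out each pup and litter.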

Additional observations from a re-analysis of the deposited data

Results flagged for a closer look

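Of 60 groups of 6 pups examined, 1 held a pup far from the others, and chance flags about 1 in 20 groups. For Hist1h2bh in the Poly I:C group, replicate 2.3 was 2.21 TPM and the other 5 pups were 1.53 to 1.67 TPM. Those 5 pups were still above the highest MAM pup, at 1.51 TPM. Without replicate 2.3 the log2 difference of Hist1h2bh between Poly I:C and saline was 0.10.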

How the results depend on the processing

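Counts of histone genes with an unadjusted p under 0.05 against saline were recomputed under each alternative, and no called difference changed sign. In Low Protein, 3 genes were higher in the reported fit, 2 with litter means and 1 to 3 when pups were left out one at a time, with 1 without Low Protein replicate 1.3 or 2.1 or saline replicate 1.1 or 1.3. The count was 1 without litter 2 of Low Protein and 0 without litter 1 of saline. In MAM, 1 gene was higher, and 1 to 2 without single pups, with 2 without MAM replicate 2.1 or saline replicate 2.2. It was 0 without litter 1 of saline and 3 without litter 2 of saline. Lower genes numbered 0 in MAM, but 1 (H1f0) with only the 12 pups compared and without litter 2 of MAM, and 0 to 1 without single pups, with 1 without MAM replicate 2.2 or 2.3. In Poly I:C, 2 genes were higher, 1 with median-of-ratios or upper quartile scaling or with litter as a random block, and 0 with only the 12 pups compared or with litter means. Leaving out single pups gave 0 to 3, with 0 without Poly I:C replicate 2.3 or saline replicate 2.3 and 1 without Poly I:C replicate 1.3, 2.1 or 2.2 or saline replicate 1.1, 1.2, 1.3 or 2.1. The count was 1 without litter 1 of Low Protein, 0 without litter 1 of MAM, 6 without litter 1 of Poly I:C, 0 without litter 2 of Poly I:C and 0 without litter 1 of saline. Lower genes in Poly I:C numbered 0, but 4 without litter 2 of Poly I:C, 1 without litter 1 of saline, and 0 to 1 without single pups (1 without saline replicate 1.3). Calls over all genes, higher and lower together, changed as well. In Low Protein 419 of 5086 genes were called in the reported fit, 262 with litter means and 292 to 482 without single pups. Without litter 2 of Low Protein 347 were called, and without litter 1 of saline 328. In MAM 572 were called in the reported fit, 763 with only the 12 pups compared and 284 to 861 without single pups. Without litter 1 of saline 161 were called, without litter 2 of saline 725 and without litter 2 of MAM 239. In Poly I:C 506 were called in the reported fit, 312 with litter means and 339 to 667 without single pups. With only the 12 pups compared 396 were called, and without litter 1 of MAM 443. Without litter 1 of Poly I:C 941 were called, without litter 2 of Poly I:C 222, and without litter 1 of saline 490. The causes were not tested. With the adjusted p under 0.05, the count of histone genes was 0 in every setting run.

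The labels give the replicate number no meaning beyond litter and pup, so the numbers were not taken as pairing the pups. Correlations of same-numbered pups of different groups ranged from −0.42 to 0.56. Their means ran from −0.07 for number 1.2 to 0.26 for number 2.2, where the lowest was 0.20. As a hint from the data, 12 of 24 pups correlated best with a pup of their own number, though most possible partners carried another number. Pairing by number was not tested further. With the replicate number as a block, 1 histone gene was higher in Poly I:C and the other counts of histone genes were as reported, while calls over all genes went from 419 to 596 in Low Protein, 572 to 794 in MAM and 506 to 652 in Poly I:C. The scalings moved the median of all genes by less than 0.1 on the log2 scale. Depth limits the untested clustered genes, which had 0 to 37 reads per pup where reads were estimated. The 2 dams per group limit every comparison.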
